A study of Mus musculus with 7 samples.

Results

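To describe how myeloid C-type lectin receptors behaved after adipocyte deletion of FFA2, 10 genes were followed among the 57010 gene identifiers of the count table, matched by symbol. They are Clec4e, which encodes Mincle, with Clec4d, Clec4n, Clec7a, Clec4a1, Clec4a2, Clec4a3, Clec10a and Clec12a, and Card9, the adaptor used by the activating receptors. The genes were chosen with earlier results of the same genotype comparison known, above all the large difference in Clec4e, so their fold changes and adjusted p-values are given as a description and do not serve as evidence for the choice. RNA came from mature white adipocytes freed from perigonadal fat by collagenase, from male mice of 20 weeks kept on normal chow (Teklad LM-485). There were 3 FFA2 fl/fl libraries, the floxed littermate controls, and 4 Adipoq-F2-KO libraries, in which the floxed FFA2 alleles that the controls also carry are deleted by Cre driven by the adiponectin promoter. This Cre is known to act in adipocytes, while these receptors are mainly known from myeloid cells. The labels call each library a sample of mice, without saying whether a library is 1 animal, and p-values measure the spread between these libraries.

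C-type lectin receptors are surface proteins of macrophages, monocytes, neutrophils and dendritic cells that bind sugars and glycolipids of microbes and of damaged cells. The activating receptors Mincle (Clec4e), MCL (Clec4d) and Dectin-2 (Clec4n) signal through the Fc receptor gamma chain, while Dectin-1 (Clec7a) carries its own short activation motif. Both routes use the kinase Syk, protein kinase C delta and a complex of CARD9, BCL10 and MALT1, which activates NF-kB. The inhibitory receptors DCIR (Clec4a2) and MICL (Clec12a) carry an inhibitory tyrosine motif, ITIM, that recruits phosphatases. Clec4a1 and Clec4a3 are close relatives of DCIR and were grouped with the inhibitory receptors by family, without a check of their own motifs. MGL1 (Clec10a) binds galactose-type sugars and is known from tissue macrophages of the alternatively activated kind. In fat, Mincle is known from macrophages of crown-like structures around dying adipocytes.

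Clec4e is a known target of C/EBP beta, so the promoters of the genes were read from RefSeq on GRCm38.p6, from 250 bases before to 50 bases after the start site, and 8 of the 10 genes matched an entry (Clec4n and Clec10a did not). The promoters of Clec4e (chr6:123289822-123290121, minus strand), of its neighbour Clec4d (chr6:123261857-123262156, plus strand) and of Clec12a (chr6:129349994-129350293, plus strand) are printed, since the first 2 belong to adjacent activating receptors and the third to an inhibitory receptor that held most matches. Capitals mark matches, on either strand, to letters of a C/EBP site (TTGCNNAA), a PU.1 site (GAGGAAG) or an AP-1 site (TGANTCA).
Clec4e: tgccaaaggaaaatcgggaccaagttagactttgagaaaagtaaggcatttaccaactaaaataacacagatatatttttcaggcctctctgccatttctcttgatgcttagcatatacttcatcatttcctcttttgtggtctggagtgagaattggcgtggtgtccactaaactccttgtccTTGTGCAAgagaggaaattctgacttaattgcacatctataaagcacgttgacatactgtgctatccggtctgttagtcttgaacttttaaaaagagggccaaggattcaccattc
Clec4d: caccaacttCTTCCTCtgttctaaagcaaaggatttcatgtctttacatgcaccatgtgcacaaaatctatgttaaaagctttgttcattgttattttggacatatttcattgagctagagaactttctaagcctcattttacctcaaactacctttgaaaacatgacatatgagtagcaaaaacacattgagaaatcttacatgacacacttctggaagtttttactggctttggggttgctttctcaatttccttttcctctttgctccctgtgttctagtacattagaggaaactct
Clec12a: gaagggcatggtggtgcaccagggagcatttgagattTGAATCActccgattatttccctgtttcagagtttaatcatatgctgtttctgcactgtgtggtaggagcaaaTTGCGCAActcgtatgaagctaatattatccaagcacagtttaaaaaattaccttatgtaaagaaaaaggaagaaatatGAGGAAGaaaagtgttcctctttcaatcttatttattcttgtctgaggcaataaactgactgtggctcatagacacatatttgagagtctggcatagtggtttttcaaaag

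The Clec4e promoter held 1 match, TTGTGCAA at position -66 from the start site, which is the C/EBP form read on the opposite strand. Clec12a held a C/EBP match at -140, a PU.1 match at -61 and an AP-1 match at -213. Clec4d held a PU.1 match at -241, Clec4a1 one at -188, and Clec4a2 an AP-1 match at 31. An NF-kB site, searched as GGG, any 3 bases and then TTCC, was found in 0 of the 8 genes. No matches overlapped. Over all 32851 promoters of the table, 10.8% held the C/EBP letters, 13.6% those of PU.1, 7.81% those of AP-1 and 5.56% those of NF-kB. In the C/EBP and PU.1 searches 2 and 3 of the 8 genes had a match. A match is a description of the letters and not a measured site.

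Total counts lay between 30478997 and 39992605 per library. Mitochondrial genes took 4.41, 5.77 and 4.98% of the counts in FFA2 fl/fl and 7.82, 6.61, 9.24 and 10.3% in Adipoq-F2-KO libraries, so their share separated the genotypes as the receptors below did, and its part in the differences was not tested. With mitochondrial genes and the most abundant gene left out of the fit, the log2 fold change of Clec4e was 2.13 (edgeR adjusted p = 0.0387). That fit only takes these genes out of the library totals and does not test what lies behind the mitochondrial share. Ffar2, the targeted gene, was counted 1404, 1346 and 1094 times in FFA2 fl/fl and 38 to 76 times in Adipoq-F2-KO adipocytes. Adipocyte markers summed to between 42555 and 47762 normalized CPM (CPM, the count of a gene relative to its library total, after TMM scaling) in FFA2 fl/fl and between 32847 and 43395 in Adipoq-F2-KO libraries, and none of the 10 markers was at 0. Markers of male germ cells and epididymis summed to 110 and 28.4 normalized CPM in Adipoq-F2-KO libraries 2 and 3 and to at most 3.83 in the other 5. All 10 genes passed the filter on low counts, and the fit covered 17039 genes, with genotype as the only term and p-values adjusted over all of them by Benjamini and Hochberg. A gene was called at an adjusted p under 0.05 in edgeR's quasi-likelihood test.

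All 10 genes had a log2 fold change above 0 in Adipoq-F2-KO adipocytes, as 50.4% of all tested genes did. They are described here by whether their libraries overlapped. Clec4e, Clec4a2, Clec4d, Clec7a, Card9 and Clec12a had log2 fold changes between 1.03 and 2.13, and their libraries did not overlap between the genotypes. Clec4a1, Clec4n, Clec10a and Clec4a3 had log2 fold changes between 0.23 and 0.37, and their libraries overlapped. These sets were not tested against each other, and with 1 library left out Clec4n reached up to 1.03. Of the 10 genes 1 was called, Clec4e, against 0.798% of all tested genes called higher, and 6 did not overlap, against 8.86% of all tested genes that did not overlap and were higher. DESeq2 and edgeR with every gene of at least 1 count kept each called the same 4 genes (Clec4e, Clec7a, Clec4a2 and Clec12a), where 3.83% and 3.76% of all genes were called higher. Since the genes were chosen from this comparison, nothing is read from these counts. Levels were low throughout, between 4 and 395 counts per library and gene.

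**Figure D1:**
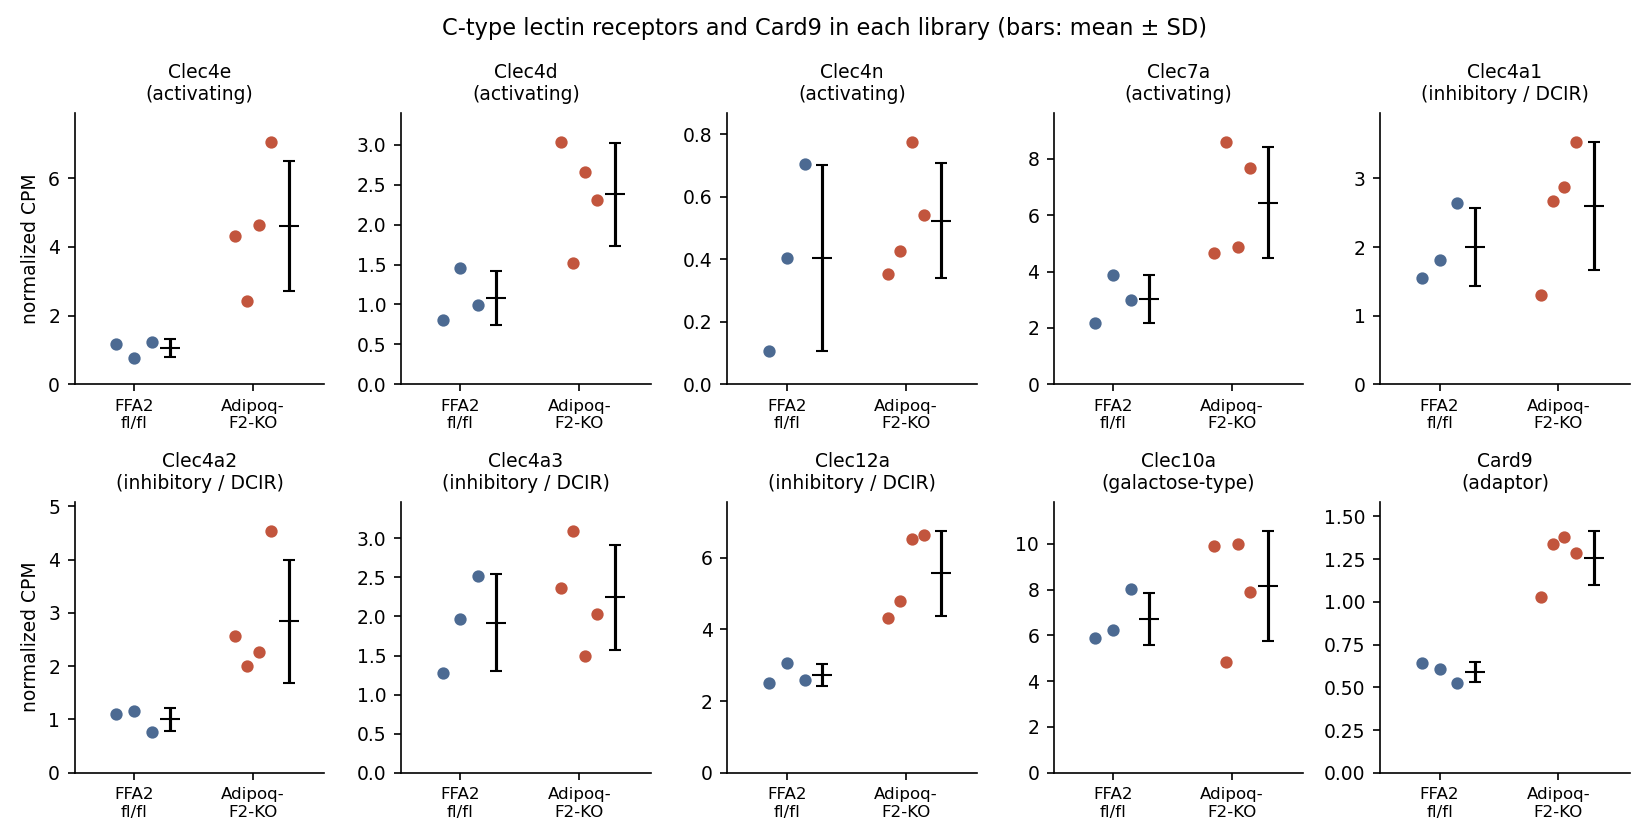
Normalized CPM (vertical axis, from 0) of each gene in the 3 FFA2 fl/fl and 4 Adipoq-F2-KO libraries, with the mean and SD beside the points. For Clec4e, Clec4d, Clec7a, Clec4a2, Clec12a and Card9 all Adipoq-F2-KO points lie above all FFA2 fl/fl points, while for Clec4n, Clec4a1, Clec4a3 and Clec10a the points overlap.

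Clec4e (ENSMUSG00000030142, chromosome 6 from 123258748 to 123266829 in the table's own coordinates) had 1.17, 0.756 and 1.23 normalized CPM in FFA2 fl/fl against 4.31, 2.43, 4.65 and 7.05 in Adipoq-F2-KO adipocytes. Adipoq-F2-KO library 4 was the highest and library 2 the lowest of its genotype, and even library 2 lay above all controls. The means were 1.05 ± 0.259 (SD, n = 3) and 4.61 ± 1.90 (SD, n = 4), which is a log2 fold change of 2.13 (standard error, SE, of 0.38, edgeR adjusted p = 0.0383). Among the 17039 tested genes, 98.9% had a smaller log2 fold change. Leaving out any 1 library kept Clec4e between 1.85 and 2.34 on the log2 scale. The gene was called in 3 of those 7 fits and lost without FFA2 fl/fl library 1, 2 or 3 (edgeR adjusted p = 0.196, 0.0777 and 0.134) or Adipoq-F2-KO library 3 (edgeR adjusted p = 0.0689). It was called by DESeq2 and not by limma voom (adjusted p = 3.2e-05 and 0.0650), and over all 16 alternative fits the adjusted p ranged from 7.9e-06 to 0.196. Without both libraries that held germ cell transcripts, Adipoq-F2-KO libraries 2 and 3, the log2 fold change of Clec4e was 2.42 and it was not called (edgeR adjusted p = 0.112).

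Clec4d, whose product MCL forms complexes with Mincle, lies next to Clec4e, with 6.52 kb between the genes. It had 0.801, 1.46 and 0.996 normalized CPM in FFA2 fl/fl and 3.04, 1.52, 2.65 and 2.31 in Adipoq-F2-KO libraries. The genotypes did not overlap, but Adipoq-F2-KO library 2 exceeded FFA2 fl/fl library 2 by little. Its log2 fold change was 1.13 (SE 0.38, edgeR adjusted p = 0.159), and the gene was called in 0 of 16 alternative fits.

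Clec7a, the beta-glucan receptor Dectin-1, had 2.19, 3.88 and 2.99 normalized CPM in FFA2 fl/fl and 4.67, 8.60, 4.87 and 7.67 in Adipoq-F2-KO libraries. Here library 2 was the highest of the Adipoq-F2-KO libraries, the one that was lowest for Clec4e and Clec4d. The log2 fold change was 1.09 (SE 0.29, edgeR adjusted p = 0.0968), and Clec7a was called by DESeq2 (adjusted p = 0.0185) and, with all counted genes kept, by edgeR (adjusted p = 0.00394), within a range of 0.00394 to 0.334 over the alternatives.

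Clec4n, which encodes the mannan receptor Dectin-2, had the fewest counts of the 10, with no regard to gene length. It had 0.107, 0.403 and 0.703 normalized CPM in FFA2 fl/fl and 0.351, 0.425, 0.774 and 0.543 in Adipoq-F2-KO libraries, so the genotypes overlapped. These values rest on 4 to 28 counts per library, which is close to the 6 counts (3 read pairs) that a count of 0 allows, and no difference was detectable at this depth. The log2 fold change of 0.37 (SE 0.74) turned to -0.078 without FFA2 fl/fl library 1, which held the 4 counts. Of the 4 activating receptors, only Clec4n had genotypes that overlapped. Its log2 fold change was 1.03 without FFA2 fl/fl library 3, so a difference from the other 3 is not shown.

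Card9, which links the activating receptors to NF-kB, had 0.641, 0.605 and 0.527 normalized CPM in FFA2 fl/fl and 1.03, 1.34, 1.38 and 1.29 in Adipoq-F2-KO libraries. The libraries lay close together within each genotype and did not overlap between them. Card9 had a log2 fold change of 1.09 (SE 0.45, edgeR adjusted p = 0.236), which lay between 1.02 and 1.17 with 1 library left out. The counts were 18 to 24 and 38 to 50 per library. A predicted gene on the opposite strand, Gm13562, shares 3.79% of the exon bases of Card9, and the strand option of the counting is not given in the sources used here.

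Among the inhibitory group, Clec4a2, which encodes DCIR, had 1.09, 1.16 and 0.762 normalized CPM in FFA2 fl/fl and 2.56, 2.00, 2.27 and 4.54 in Adipoq-F2-KO libraries. As for Clec4e, Adipoq-F2-KO library 4 was the highest and library 2 the lowest of its genotype. The log2 fold change was 1.49 (SE 0.38, edgeR adjusted p = 0.0864), larger than those of Clec4d, Clec7a and Clec4n. Clec4a2 was called by DESeq2 and, with all counted genes kept, by edgeR (adjusted p = 0.0152 and 0.0253), within a range of 0.0152 to 0.267 over the alternatives.

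Clec12a, which encodes MICL, a receptor for uric acid crystals, had 2.51, 3.07 and 2.58 normalized CPM in FFA2 fl/fl and 4.31, 4.80, 6.53 and 6.65 in Adipoq-F2-KO libraries. All Adipoq-F2-KO libraries lay above all controls. The log2 fold change of Clec12a was 1.03 (SE 0.24, edgeR adjusted p = 0.0622), and it was called by the same 2 alternatives as Clec4a2 (DESeq2 adjusted p = 0.00962, edgeR adjusted p = 0.0111), within a range of 0.00962 to 0.263.

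The DCIR relatives Clec4a1 and Clec4a3 overlapped between the genotypes. Clec4a1 had 1.55, 1.81 and 2.64 normalized CPM in FFA2 fl/fl and 1.30, 2.67, 2.88 and 3.53 in Adipoq-F2-KO libraries, so the lowest of all 7 libraries was an Adipoq-F2-KO library. Clec4a3 had 1.28, 1.97 and 2.52 normalized CPM in FFA2 fl/fl and 2.36, 3.10, 1.49 and 2.04 in Adipoq-F2-KO libraries. Their log2 fold changes were 0.37 (SE 0.37) and 0.23 (SE 0.36). Clec10a, the most abundant receptor of the 10 per length, was similar in this respect, with 5.90, 6.25 and 8.03 normalized CPM in FFA2 fl/fl and 9.91, 4.83, 9.98 and 7.90 in Adipoq-F2-KO libraries and a log2 fold change of 0.28 (SE 0.25). The edgeR adjusted p-values of the 3 genes were 0.643, 0.787 and 0.587, and none was called in any of the 16 alternative fits.

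**Figure D2:**
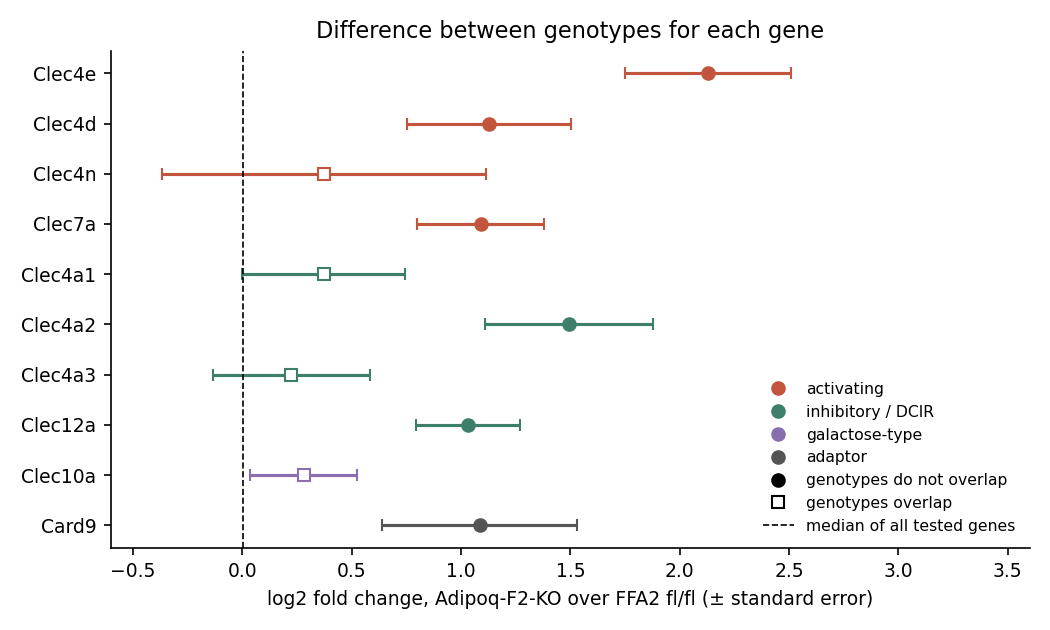
Log2 fold change of Adipoq-F2-KO over FFA2 fl/fl (horizontal axis) with its standard error for each gene, coloured by role, with the median of all tested genes as a dashed line at 0.00. Filled points are genes whose libraries do not overlap between genotypes, and both the activating and the inhibitory group hold filled and open points.

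The activating and inhibitory receptors were then compared as groups. The median log2 fold change was 1.11 over the 4 activating receptors (Clec4e, Clec4d, Clec4n, Clec7a) and 0.70 over the inhibitory group (Clec4a2, Clec12a, Clec4a1, Clec4a3), against 0.00 over all tested genes. The difference of 0.41 ranged from 0.24 (without Adipoq-F2-KO library 1) to 0.64 (without FFA2 fl/fl library 2) with 1 library left out, with 0.27 without FFA2 fl/fl library 3. Taken per library, the difference of the 2 groups' median log2 CPM had an SD of 0.45 within a genotype, larger than 0.41. That SD is the spread of single libraries in a related quantity and not the error of the 0.41, and no test was made. With the inhibitory group held to Clec4a2 and Clec12a its median was 1.26, and the difference turned to -0.15. In each group the genes without overlap and the genes with overlap were both found, 3 and 1 among the activating and 2 and 2 in the inhibitory group.

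In summed normalized CPM the activating receptors had 4.27, 6.50 and 5.92 in FFA2 fl/fl and 12.4, 12.97, 12.94 and 17.6 in Adipoq-F2-KO libraries. The inhibitory group had 6.44, 8.01 and 8.49 in FFA2 fl/fl and 10.5, 12.6, 13.2 and 16.8 in Adipoq-F2-KO libraries. The sum of both groups was thus higher in every Adipoq-F2-KO library. The ratio of activating to inhibitory sums was 0.664, 0.811 and 0.697 in FFA2 fl/fl and 1.17, 1.03, 0.983 and 1.05 in Adipoq-F2-KO libraries, with means of 0.724 ± 0.0774 (SD, n = 3) and 1.06 ± 0.0812 (SD, n = 4) and no overlap. Without Clec4e in the activating sum it was 0.583 ± 0.121 (SD, n = 3) and 0.715 ± 0.104 (SD, n = 4), and the genotypes overlapped. Without Clec4a1 and Clec4a3 in the inhibitory sum it was 1.498 ± 0.295 (SD, n = 3) and 1.69 ± 0.201 (SD, n = 4), and they overlapped as well. On a log2 scale, where each gene weighs the same, the mean of the activating minus that of the inhibitory group was -0.75 ± 0.23 (SD, n = 3) in FFA2 fl/fl and -0.31 ± 0.23 (SD, n = 4) in Adipoq-F2-KO libraries, again with overlap.

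**Figure D3:**
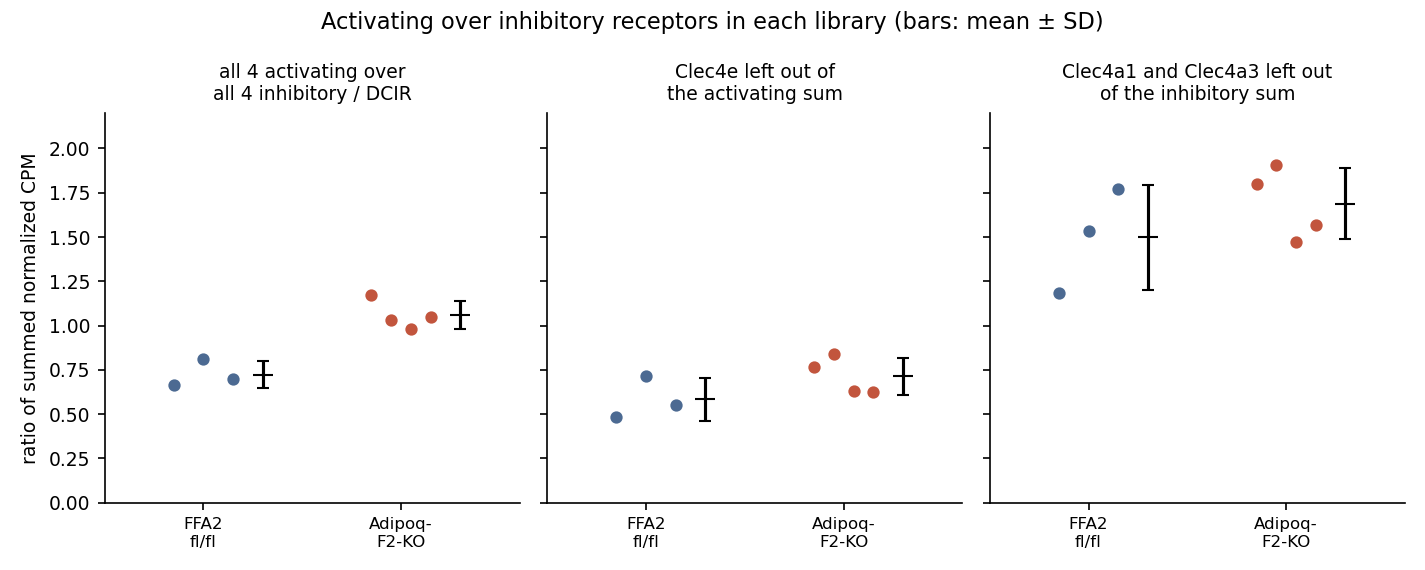
Ratio of the summed normalized CPM of activating receptors to that of the inhibitory group (vertical axis, from 0) in each library, with mean and SD, for all 8 receptors, without Clec4e, and without Clec4a1 and Clec4a3. The genotypes are apart in the left panel, at 0.664 to 0.811 and 0.983 to 1.17, and overlap in the other panels.

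Levels were compared between genes as RPKM, which is normalized CPM divided by the summed exon length of the gene in kilobases. In FFA2 fl/fl adipocytes the order from high to low was Clec10a at 2.32 ± 0.393 RPKM (SD, n = 3), Clec4a3, Clec4a1, Clec7a, Clec4d, Clec12a, Clec4a2, Clec4n, Card9 and, last, Clec4e at 0.212 ± 0.0522 RPKM (SD, n = 3). The gap between neighbours exceeded the larger of their SDs for Clec10a over Clec4a3, Clec7a over Clec4d and Clec12a over Clec4a2, and the other neighbours did not differ beyond their spread. In Adipoq-F2-KO adipocytes Clec10a was again first at 2.81 ± 0.834 RPKM (SD, n = 4), not beyond the spread from Clec7a at 2.44 ± 0.751 (SD, n = 4), and Clec4e was eighth at 0.929 ± 0.382 RPKM (SD, n = 4). Clec12a, Clec4a2 and Clec4e did not differ beyond their spread there, at 1.01, 0.972 and 0.929 RPKM. Per length, Mincle transcript thus had the lowest mean of the 10 in the controls, not beyond the spread from Card9. In Adipoq-F2-KO adipocytes the means of Card9 and Clec4n lay below it, that of Card9 not beyond the spread. This order depends on the summed exon length, which was 4965 bases for Clec4e and 1599 for Clec4d. In normalized CPM, the FFA2 fl/fl mean of Clec4e (1.05) lay above those of Card9 (0.591) and Clec4n (0.404). It was not beyond the spread from Clec4a2 (1.01).

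Of the 10 genes 8 lie on chromosome 6. There Clec4a1, Clec4a3, Clec4a2, Clec4n, Clec4d and Clec4e form the Clec4 cluster, which spans 368 kb, and Clec12a and Clec7a lie 6.05 Mb beyond it. The table holds 13 genes in the span from Clec4a1 to Clec4e, of which 7 passed the filter and 9 had any count. Position did not order the fold changes. The first pair, Clec4a1 and Clec4a3, overlapped between genotypes, Clec4b1 and Clec4a2 further along did not, Clec4n overlapped, and Clec4d and Clec4e did not. Clec4b1, which encodes the receptor DCAR and was named after its values were seen, had 4 to 10 counts in FFA2 fl/fl and 28 to 52 in Adipoq-F2-KO libraries, with a log2 fold change of 2.33 (SE 0.64, edgeR adjusted p = 0.104). Clec4a4 had 8 counts in all 7 libraries together and Clec4b2 had 0, a count that allows at most 0.197 CPM per library. Reads of near-identical genes could be split between them. Of all 100-base words in a gene's GENCODE M21 transcripts, 2.14% were shared with another gene for Clec4a2 (Clec4a4), 2.64% for Clec10a (Mgl2) and 0% for the other 8 genes.

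**Figure D4:**
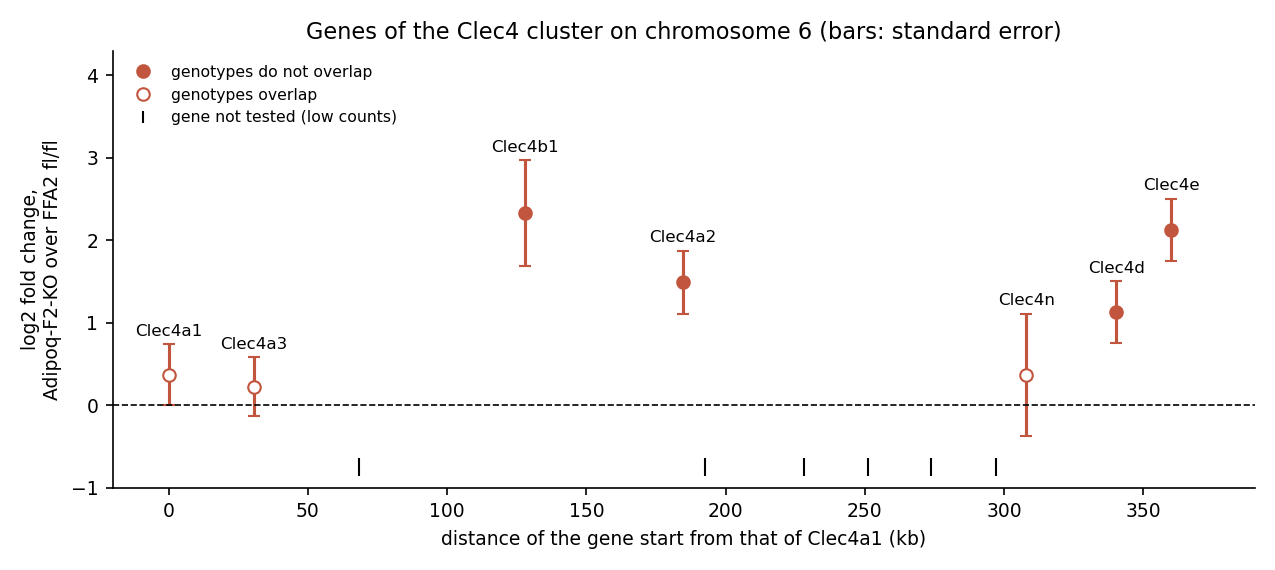
Log2 fold change of Adipoq-F2-KO over FFA2 fl/fl with its standard error (vertical axis) against the distance of each gene's start from that of Clec4a1 in kb (horizontal axis), for the 7 tested genes of the cluster, with ticks for the 6 genes not tested. Filled points, which do not overlap between genotypes, are found next to open points along the cluster.

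The libraries were of isolated adipocytes, and markers of some other cell types, though not of all, were mostly higher in Adipoq-F2-KO libraries too. Of 23 macrophage markers (such as Cd74, Lyz2 and Mertk) 22 were tested, 20 had a log2 fold change above 0, and the median was 0.60. Among them 3 were called higher (Cd68, Lyz2 and Cybb) and 0 lower, and none of the 23 was at 0 in all libraries. Over all tested genes, 0.798% were called higher and 50.4% had a log2 fold change above 0. Mertk had a log2 fold change below 0 (-0.42), Cd74 of 0.54 and Lyz2 of 0.69. Their sum lay between 672 and 829 normalized CPM in FFA2 fl/fl and between 919 and 1099 in Adipoq-F2-KO libraries, without overlap, and the mean was 1.35 times higher. In bulk libraries, more cells of a type and more RNA per cell cannot be told apart, and the part of macrophage content in the differences of the receptors was not tested. Dendritic cell markers had 8 of 9 tested genes above 0 and a median of 0.51, with Cd83 called higher, and monocyte markers 7 of 9 and a median of 0.51. Neutrophil markers, of which 5 of 15 were tested, had 3 above 0 and a median of 0.07. Their sum lay between 11.5 and 12.7 normalized CPM in FFA2 fl/fl and between 14.7 and 17.4 in Adipoq-F2-KO libraries, without overlap, and its part in the differences was not tested. Of the list, Ly6g was at 0 in all libraries, S100a9 had at most 10 counts and S100a8 35 to 96 counts per library. Mmp9, which other myeloid cells also make, had 180 to 306 counts in FFA2 fl/fl and 324 to 426 in Adipoq-F2-KO libraries (log2 fold change 0.79, edgeR adjusted p = 0.0647). Elane, a granule protease of neutrophil precursors, had 57 to 76 counts in FFA2 fl/fl and 32 to 46 in Adipoq-F2-KO libraries (log2 fold change -0.69, edgeR adjusted p = 0.374). Mmp9 was the most abundant neutrophil marker, with a mean of 6.09 normalized CPM for the controls and 10.5 after deletion of FFA2. That rise was about as large as the shift of the neutrophil sum, which thus rests mainly on Mmp9. Among the other tested neutrophil markers, the means of S100a8 and Elane fell, and those of Csf3r and Il1r2 rose by little. The neutrophil sum without Mmp9 was not computed. S100a9, Ly6g, Csf3r and Il1r2 were named after their values were seen.

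Each gene was therefore set against the summed macrophage markers of the same library, as normalized CPM per 1000 CPM of markers. Clec4e had 1.75, 0.912 and 1.70 in FFA2 fl/fl and 4.64, 2.64, 4.43 and 6.42 in Adipoq-F2-KO libraries, which is 3.12 times higher in the mean and without overlap. Clec4a2 was 2.06 times higher, Card9 1.57 times and Clec12a 1.51 times, each without overlap. Clec4d and Clec7a were 1.65 and 1.61 times higher, with 3 of 4 Adipoq-F2-KO libraries above all controls. For Clec4n, Clec4a1, Clec10a and Clec4a3 the ratio of means lay between 0.887 and 0.961, with 0 of 4 libraries above all controls. Relative to macrophage markers, 4 genes had no overlap and 6 overlapped. The share of all tested genes without overlap on this scale was not computed. Since the genes were also chosen from this comparison, nothing is read from this count. With the most abundant marker, Cd74, left out of the sum, Clec7a also had no overlap (1.65 times higher), and the ratio of Clec4e was 3.28 times higher. The sum weighs markers by abundance. Mertk, an abundant marker, went the other way, from a mean of 93.2 normalized CPM in FFA2 fl/fl to 69.8 in Adipoq-F2-KO libraries. Without Mertk the sum would rise more and these ratios would be lower, by an amount that was not computed.

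**Figure D5:**
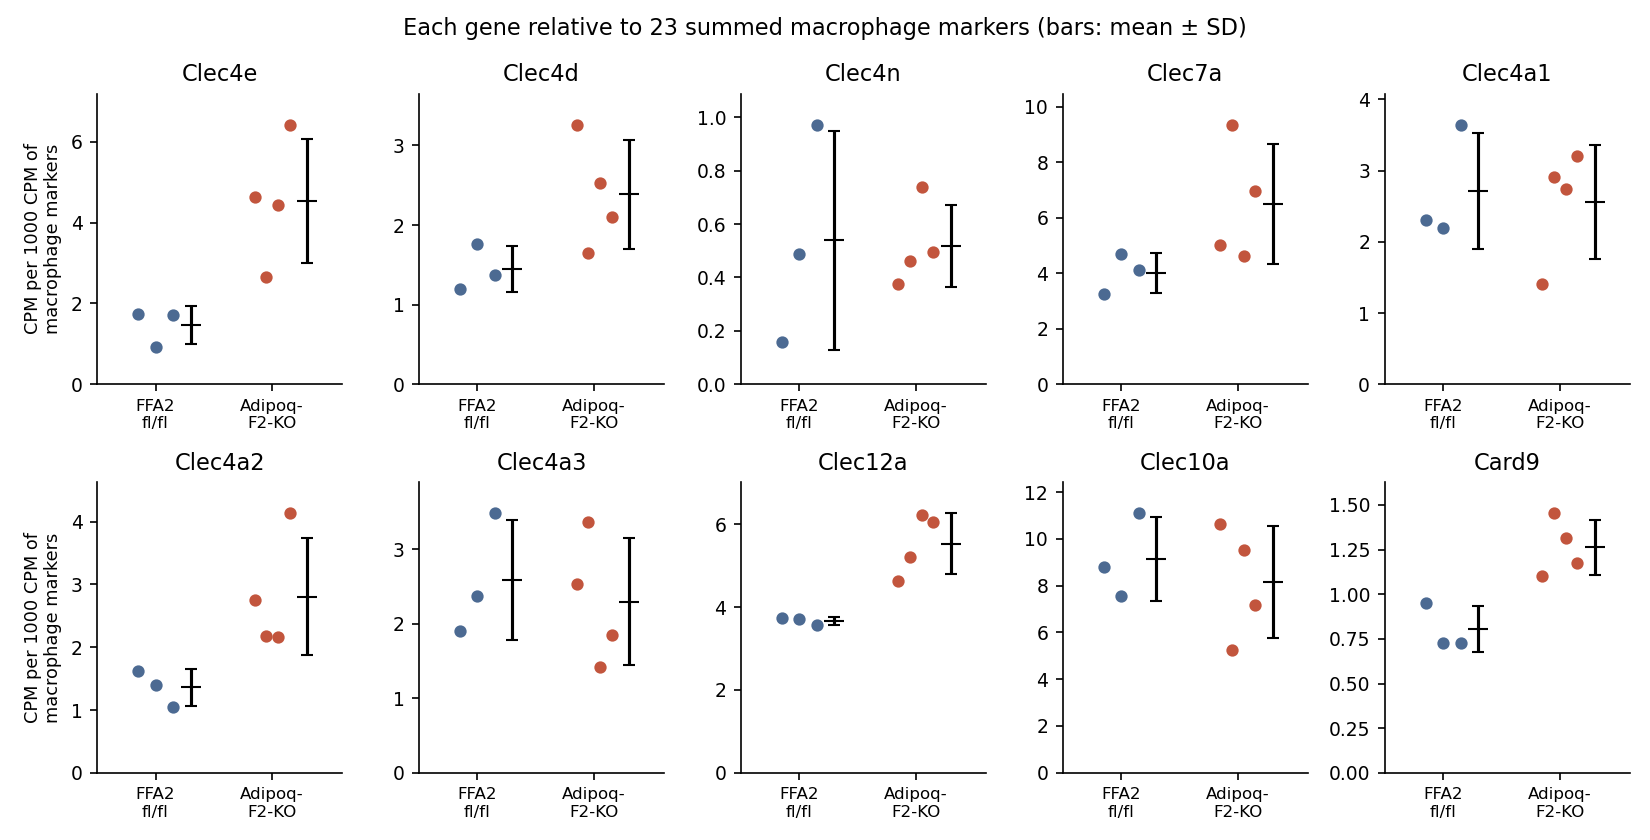
Normalized CPM of each gene per 1000 normalized CPM of 23 summed macrophage markers (vertical axis, from 0) in each library, with mean and SD. Clec4e, Clec4a2, Clec12a and Card9 have no overlap between genotypes, with Clec4e at 0.912 to 1.75 and 2.64 to 6.42, and the points of Clec4n, Clec4a1, Clec4a3 and Clec10a overlap.

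Genes that act next to the receptors were described from fixed lists. Of 17 genes that carry the signal of activating receptors 15 had a log2 fold change above 0, with a median of 0.52, and 1 was called higher and 0 lower, against 0.798% of all tested genes called higher. The called gene, Prkcd, encodes protein kinase C delta, which phosphorylates CARD9. It had 24.7 ± 2.93 normalized CPM in FFA2 fl/fl (SD, n = 3) and rose to 43.6 ± 5.16 in Adipoq-F2-KO libraries (SD, n = 4), and its log2 fold change was 0.82 (SE 0.12, edgeR adjusted p = 0.0332). Fcer1g, the Fc receptor gamma chain that Mincle signals through, and Syk were named after their values were seen. Fcer1g had 6.98 ± 1.13 (SD, n = 3) against 11.9 ± 2.15 normalized CPM (SD, n = 4), without overlap (log2 fold change 0.77, edgeR adjusted p = 0.0646). Syk had 17.7 ± 6.27 (SD, n = 3) against 26.1 ± 3.96 normalized CPM (SD, n = 4), with overlap (log2 fold change 0.55, edgeR adjusted p = 0.191). Bcl10 and Malt1, the partners of Card9, had log2 fold changes of 0.63 and 0.36, were not called and were likewise named after their values were seen.

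The phosphatases recruited by ITIM receptors and the ubiquitin ligases that end the signal were 6 genes, with 3 above 0 and 3 below, a median log2 fold change of 0.03 and 0 called in either direction by edgeR (at an unadjusted p under 0.05, 0 were higher and 1 lower). Ptpn11, which encodes SHP-2, was the most abundant, with 359 ± 21.4 (SD, n = 3) and 306 ± 14.95 normalized CPM (SD, n = 4) and a log2 fold change of -0.23 (edgeR adjusted p = 0.199). Inppl1 and Cbl had log2 fold changes of -0.05 and 0.20.

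Of 15 cytokine and inflammasome genes known as outputs of CARD9 signalling, 14 had a log2 fold change above 0, with a median of 0.98, and 4 were called higher and 0 lower, again against 0.798% of all tested genes, in a list chosen with earlier results of these data known. The called genes were Tnf, Il6, Ccl4 and Nlrp3. Nlrp3, the sensor of an inflammasome, had 8.61 ± 1.34 normalized CPM (SD, n = 3) and rose to 19.01 ± 4.47 (SD, n = 4), and its log2 fold change was 1.14 (SE 0.19, edgeR adjusted p = 0.0332). Tnf had 14.4 ± 2.16 normalized CPM (SD, n = 3) and rose to 45.04 ± 13.8 (SD, n = 4), and its log2 fold change was 1.65 (SE 0.22, edgeR adjusted p = 0.0192). Il6 and the chemokine gene Ccl4 had log2 fold changes of 1.47 and 1.96, each with an edgeR adjusted p of 0.0332. The exception below 0, named for that after its values were seen, was Il23a. These transcripts are made by many cells and by other routes, and the libraries do not assign them to a receptor.

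Among 7 genes listed as a ligand of Mincle and regulators of Clec4e, 6 were above 0, the median log2 fold change was 0.27, and 0 were called in either direction by edgeR (4 higher and 0 lower at an unadjusted p under 0.05). Cebpb had 153 ± 11.8 (SD, n = 3) against 164 ± 36.9 normalized CPM (SD, n = 4), Cebpd 151 and 148, and Rela 218 and 262, each with overlap. The 3 genes without overlap, named after their values were seen, were Irf5, Nfkb1 and Spi1, which encodes PU.1. Their log2 fold changes were 1.01, 0.76 and 0.64 (edgeR adjusted p = 0.135, 0.0608 and 0.0987). The listed gene Sap130 encodes a protein associated with SIN3A and not the nuclear protein of that name which Mincle binds when it leaves dead cells. That ligand is the product of Sf3b3, which was looked up afterwards and had 60.1 ± 0.667 (SD, n = 3) against 59.1 ± 6.43 normalized CPM (SD, n = 4), with overlap. Of 39 other C-type lectin genes 26 were tested, with 18 above 0, a median of 0.28, 1 called higher and 0 lower. Over all tested genes, 50.4% were above 0 and 0.798% were called higher. The called gene was Olr1, the receptor for oxidized low-density lipoprotein, which had 2.83 ± 0.866 normalized CPM (SD, n = 3) and rose to 9.35 ± 1.26 (SD, n = 4), and its log2 fold change was 1.72 (SE 0.24, edgeR adjusted p = 0.0220).

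The genes most like Clec4e across the 7 libraries were sought among the 13508 genes that averaged 1 CPM or more, by the root mean square difference between centred log2 CPM profiles. Outside the 10 genes the nearest were Ccl3 at 0.267, Tnf at 0.387, Ccl4 at 0.409, Tnc at 0.410 and D630039A03Rik at 0.420 log2 units. Ccl3 and Ccl4 encode chemokines, and Tnc encodes the matrix protein tenascin C. Each of these 5 genes was higher in all Adipoq-F2-KO than in all FFA2 fl/fl libraries, which the measure favours by construction. Among the other 9 genes, Clec4a2 was the nearest to Clec4e at 0.491, with 11 other genes closer, and Clec4d stood at 0.688, with 160 closer. By this measure the inhibitory DCIR transcript was nearer to Clec4e than its neighbour and partner Clec4d was. The measure includes the step between genotypes, which favours Clec4a2 (log2 fold change 1.49) over Clec4d (1.13) beside Clec4e (2.13). Within FFA2 fl/fl, Clec4a2 did not follow Clec4e, with 1.09, 1.16 and 0.762 against 1.17, 0.756 and 1.23 normalized CPM. Within Adipoq-F2-KO, both were highest in library 4 and lowest in library 2.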

How the data were processed

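RNA-Seq was available for 3 FFA2 fl/fl and 4 Adipoq-F2-KO libraries, prepared from poly-A RNA with a kit that keeps strand and sequenced from both ends. The deposited values are raw counts per gene, made by the authors with Trimmomatic, STAR and featureCounts. The submitters' processing notes name GRCm38 and mm10, but 0 of the 10 genes overlapped their GRCm38.p6 positions, so the build of the table's coordinates is not given in the sources used here. Versions and options are not given either. Between 85.5% and 88.8% of counts from 1 to 49 were even, so both mates of a pair appear to be counted. Of 57010 identifiers 52029 had a symbol.

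Genes were kept by filterByExpr, scaled with TMM (factors 0.968 to 1.02) and tested, two-sided, by the quasi-likelihood functions of edgeR 4.0.16 under R 4.3.3. Standard errors are the log2 fold change over the square root of F, and profiles are log2 CPM with a prior count of 2. Alternatives were DESeq2 1.42.0, which the study used, limma voom 3.58.1, another normalization or filter, halved counts, a replicate block and libraries left out. At this depth 0 counts allow 0.150 to 0.197 CPM (6 counts or 3 read pairs, counting error only). All pairs of libraries within a genotype differed by more than sampling noise, with a chi-square of 41.5 to 165 for each degree of freedom. The scripts were tested on simulated data.

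The members and lists were chosen with earlier results of these data known. Named are the 10 members, Ffar2, called genes of each list or otherwise its 3 most abundant, and the 5 genes nearest to Clec4e, with others marked as named after their values were seen. Markers covered macrophages, monocytes, neutrophils, dendritic cells, adipocytes, germ cells with epididymis, T, B, mast, endothelial, progenitor and mesothelial cells. The promoter motifs were chosen after the values were seen, and the C/EBP and NF-kB letters were corrected after a first search with misspelt forms.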

Additional observations from a re-analysis of the deposited data

Results flagged for a closer look

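Of 61 values over the 4 Adipoq-F2-KO libraries (the 10 genes, their ratios and the summed lists), 3 had 1 library far from the others by Dixon's test, and chance flags about 1 in 20. The summed activating receptors were at 17.6 normalized CPM in Adipoq-F2-KO library 4 and at 12.4 to 12.97 in the other 3. The 7 genes listed as a ligand of Mincle and regulators of Clec4e summed to 879 normalized CPM in Adipoq-F2-KO library 3, against 752 to 767 in the others. The mast cell markers summed to 30.3 normalized CPM in Adipoq-F2-KO library 4, against 16.0 to 17.9.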

How the results depend on the processing

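The direction of 9 of the 10 genes was kept in all 16 alternative fits. The log2 fold change of Clec4n lay between -0.078 and 1.03 with 1 library left out, and it turned without FFA2 fl/fl replicate 1. Without FFA2 fl/fl replicate 1 that of Clec4a3 was also near 0, at 0.0020, and it ranged up to 0.48, and Clec4a1 ranged from 0.15 to 0.63. Clec4n was not tested with counts halved, since it failed the filter. The number of genes called was 173, against 888 with DESeq2, 1403 with a filter of at least 1 count, and between 1 and 178 with 1 library left out. It was 1 without FFA2 fl/fl replicate 1, 41 without replicate 2 and 5 without replicate 3, and 11 and 20 without Adipoq-F2-KO replicates 2 and 3, and the cause was not tested. The group medians and their difference (0.24 to 0.64 with 1 library left out) moved by less than the spread between libraries, with 1 exception. With the inhibitory group held to Clec4a2 and Clec12a its median was 1.26 and the difference -0.15. For the difference that spread was 0.45, larger than the 0.41 itself. Loss of the whole difference would thus also have passed, and stability is not read from this. The labels do not say that replicate numbers pair the libraries. No sign of it was seen (same-number correlations of deviations -0.0242 to 0.0315, and 1 of 6 libraries correlated best with its own number). These few correlations cannot exclude a pairing. With the replicate block and Adipoq-F2-KO replicate 4 left out, 223 genes were called, against 166 without that library and with no block. Of 2 alternatives chosen after seeing the data, robust dispersion called 196 genes and leaving out both libraries with germ cell transcripts called 4. Depth limits Clec4n and Card9 most, at 4 to 50 counts per library.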

Other observations

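Endothelial markers had 10 of 10 tested genes above 0 (median log2 fold change 0.49) and fibroblast progenitor markers 9 of 10 (median 0.45), with 0 and 1 called higher. For comparison, 50.4% of all tested genes were above 0 and 0.798% were called higher. B cell markers had 0 of 7 above 0 (median -0.30), T and NK cell markers 2 of 4 (median 0.00), mast cell markers 2 of 4 (median 0.08) and mesothelial markers 2 of 6 (median -0.52), with 0 called in these 4 lists. Adipocyte markers had 1 of 10 above 0 (median -0.26).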
